A study of Mus musculus with 6 samples.

Results

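Distal intergenic H3K4me3 peaks are the subject here, that is, peaks of trimethylated histone H3 lysine 4 that lay away from genes in mouse embryonic stem cells of the E14 line. A peak of the deposited H3K4me3 list was included when it was on chromosomes 1 to 19, was shorter than 5000 bp, had its midpoint outside every annotated gene body and lay more than 5000 bp from every annotated transcript start site. Of 59927 H3K4me3 peaks, 15070 met all criteria (25.1%). The rule was applied in steps that left 58571 peaks on autosomes, 56490 below the length limit, 31163 far from start sites and finally 15070 outside gene bodies. Positions are those of mm10 with the GENCODE vM21 annotation. The rule used position and length only, so that tags, enrichment, sequence and ASH2L overlap of the peaks were not part of the choice.

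The study mapped chromatin by CUT&RUN, in which a nuclease tethered to an antibody cuts out the bound DNA for sequencing. There were 6 samples in 3 groups of 2 biological duplicates: E14 cells with HA-tagged ASH2L profiled with anti-H3K4me3, the same cells profiled with anti-HA, and parental E14 cells profiled with anti-HA. All groups were treated with doxycycline for 48 h. The HA-ASH2L cells are called a knock-in in the labels, whereas the study's methods describe an inducible piggyBac transgene with single colonies picked for stable expression. How many colonies the libraries came from is not stated. The labels give 100000 cells for H3K4me3 and 1000000 cells for HA, whereas the study's methods give the larger number for each experiment. Duplicates were merged before peak calling, and the spread between them cannot be given. Peaks were called at a p-value cutoff of 1e-05 without a control library, against a background taken from up to 10000 bp of the same library. After redundant tags were removed, 27328071 of 39669806 H3K4me3 tags were left. The parental HA samples were not analysed here.

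H3K4me3 is written by the SET1/MLL (COMPASS) methyltransferases, which share core subunits that include ASH2L, WDR5, RBBP5 and DPY30. The mark is best known at promoters, above all at CpG islands, which are stretches of GC-rich sequence that keep their CpG dinucleotides. CpG islands attract these enzymes through proteins with CXXC domains. Distal regulatory elements usually carry mono-methylated H3K4, and H3K4me3 far from genes is found at some active enhancers, at promoters that an annotation lacks, and at repeats that hold their own promoters.

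The sequences at the summits differed widely. Shown here are the 200 bp around the summit of 6 peaks, read from the forward strand of mm10, with CpG dinucleotides in capitals, since the peaks are set apart by CpG content in what follows. Each line begins with the protein-coding gene of the nearest start site.
Sox17, chr1:4571605-4571804: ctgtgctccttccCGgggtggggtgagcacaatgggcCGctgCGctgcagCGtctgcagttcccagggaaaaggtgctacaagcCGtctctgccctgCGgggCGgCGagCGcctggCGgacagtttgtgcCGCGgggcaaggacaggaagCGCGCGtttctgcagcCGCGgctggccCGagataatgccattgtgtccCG
Gm8797, chr3:5860558-5860757: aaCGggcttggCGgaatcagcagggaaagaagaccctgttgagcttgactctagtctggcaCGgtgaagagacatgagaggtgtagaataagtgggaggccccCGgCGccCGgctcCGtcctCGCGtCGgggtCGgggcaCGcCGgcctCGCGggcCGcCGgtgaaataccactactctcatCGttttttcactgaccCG
Zfp873, chr10:81997307-81997506: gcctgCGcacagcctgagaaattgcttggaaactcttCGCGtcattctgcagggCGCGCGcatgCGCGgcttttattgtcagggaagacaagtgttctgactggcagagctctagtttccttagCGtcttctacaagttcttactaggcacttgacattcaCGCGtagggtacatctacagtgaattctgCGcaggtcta
Sox2, chr3:34795640-34795839: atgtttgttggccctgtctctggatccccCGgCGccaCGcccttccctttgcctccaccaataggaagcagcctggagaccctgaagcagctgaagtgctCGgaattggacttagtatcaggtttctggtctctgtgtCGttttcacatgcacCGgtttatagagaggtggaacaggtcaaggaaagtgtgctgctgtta
Abt1, chr13:23412808-23413007: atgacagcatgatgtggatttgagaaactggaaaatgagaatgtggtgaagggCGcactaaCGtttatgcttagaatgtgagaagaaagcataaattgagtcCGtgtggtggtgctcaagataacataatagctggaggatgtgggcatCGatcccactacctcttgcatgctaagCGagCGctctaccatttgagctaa
Spred1, chr2:117018330-117018529: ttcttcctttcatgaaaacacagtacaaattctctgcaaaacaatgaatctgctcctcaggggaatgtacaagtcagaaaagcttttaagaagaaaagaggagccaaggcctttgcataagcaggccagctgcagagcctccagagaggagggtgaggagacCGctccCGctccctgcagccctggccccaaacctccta
The window at the Sox17 peak held 19 CpG dinucleotides and 67.5% GC, with an observed/expected CpG ratio of 0.844. The windows near Gm8797 and Zfp873, from peaks with very high fold enrichment, held 19 and 12. Whether the window near Gm8797 is ribosomal RNA sequence was not tested. Near Sox2, 6 CpGs were present at a ratio of 0.428, and 6 were also present in the peak with the most tags, near Abt1. In contrast, the window of the peak 102669 bp from Spred1 held only 2 CpGs at 50.5% GC and a ratio of 0.158. That peak had the highest p-value score, 945.95, among peaks with no CpG island window and less than 20% repeats.

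Distal intergenic peaks were short and had few tags. Their median length was 1130 bp (95% interval 1118 to 1142 bp), compared with 1180 bp for 14118 peaks in introns that were also more than 5000 bp from start sites, and 2342 bp for 16532 peaks within 1 kb of a start site. All these classes hold autosomal peaks shorter than 5000 bp, so that 2081 longer autosomal peaks are in none of them. The median number of tags was 73 (71 to 74) against 76 in distal introns and 328 at start sites. Per length, distal intergenic peaks had 63.5 tags per kb, close to 62.6 in distal introns and below 135 at start sites. Thus distal intergenic peaks had fewer tags than start-site peaks both because they were shorter and because they had fewer tags per kb. Intervals for medians and shares are 95% intervals over peaks and cover counting error only. Peaks are not replicates, and no test across samples was possible.

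By fold enrichment, which relates the summit's tags to a modelled background, the order was different. The median was 6.84 (6.78 to 6.84) for distal intergenic peaks, 6.74 (6.69 to 6.79) at start sites and 6.39 (6.33 to 6.45) in distal introns, with a range from 2.26 to 24.33 among distal intergenic peaks. The intervals for intergenic and start-site peaks overlapped, while that for introns was lower than both. The p-value score, which is −log10 of the p-value times 10 and is 50 at the cutoff, had a median of 150 against 142 in distal introns and 538 at start sites. Scores were at least 100 in 10351 distal intergenic peaks (68.7%) and at least 500 in 1023 (6.79%). All distal intergenic peaks together held 1642677 tags, 6.01% of the tags that entered peak calling.

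**Figure D1:**
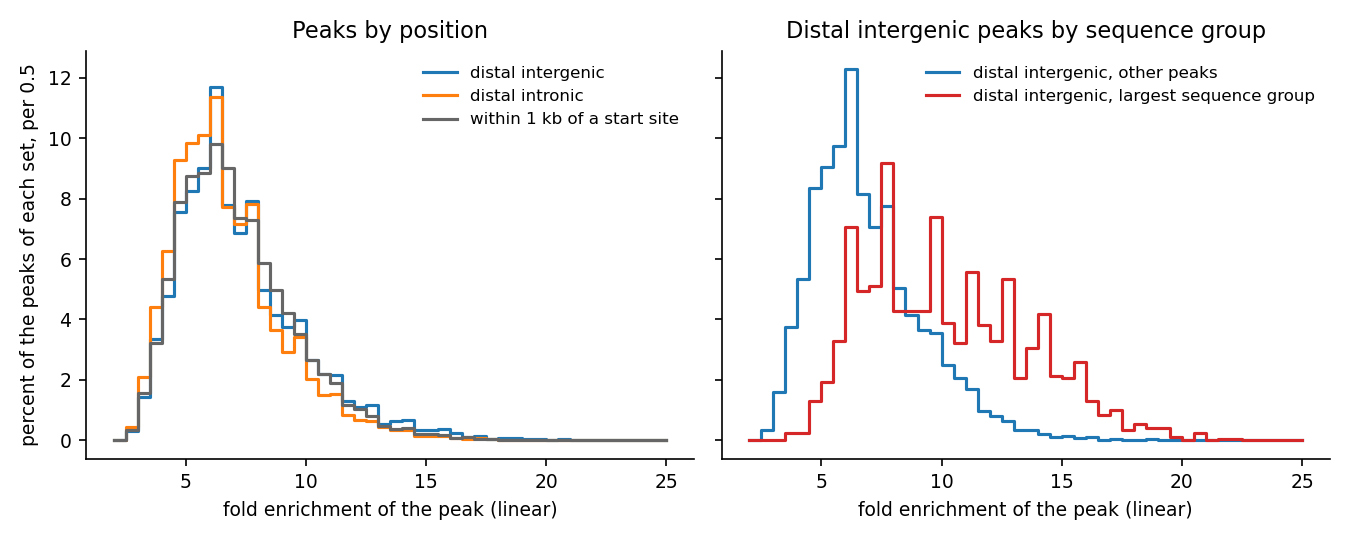
Share of peaks (percent per 0.5 of fold enrichment) by the fold enrichment of the deposited list, for 15070 distal intergenic peaks, distal intronic peaks and peaks within 1 kb of a start site (left), and for distal intergenic peaks inside and outside the largest group of like sequences (right). The sets on the left lie close together, with medians of 6.84, 6.39 and 6.74, whereas the largest sequence group on the right is shifted to a median of 9.54 against 6.46.

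Length and tags rose together across the 15070 peaks (Spearman's rho 0.953, a description across peaks of 1 merged library), while length and fold enrichment did not (rho −0.114). Of the peaks, 6064 (40.2%) were shorter than 1000 bp with a median of 38 tags, and 204 (1.35%) were 4000 bp or longer with a median of 505.5 tags. Median fold enrichment was 7.39 from 1000 to 2000 bp and 4.47 from 4000 bp.

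The 3 thresholds of the rule cut through continuous values. Just inside the distance limit was chr5:118413256-118414378, 5001 bp from a start site, with 106 tags and a fold enrichment of 5.76, and just outside, at 5000 bp, was chr17:27534550-27535585 with 56 tags and 3.86. By length, chr11:117466005-117471001 (4997 bp, 481 tags, fold enrichment 6.35) was inside and chr19:4847284-4852292 (5009 bp, 531 tags, 6.10) was outside. At the edge of gene bodies, chr12:85812862-85814318 lay 5 bp outside a gene near Erg28 and was included, whereas chr1:184786078-184787460 lay 2 bp inside one near Marc1. Another 163 peaks met the position rule but were 5000 bp or longer.

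Across the genome, distal intergenic peaks were spread over all autosomes at 14.4 per Mb (14.2 to 14.6) of eligible sequence, that is, of the 1047.5 Mb in which a midpoint meets the position rule. Distal introns held 19.2 peaks per Mb (18.8 to 19.5) in 736.8 Mb. The density was lowest on chromosome 14, at 8.29 per Mb, and highest on chromosome 11, at 22.9 per Mb, with chromosome 19 next at 20.6 per Mb. Only 26 peaks (0.173%) lay within 10000 bp of an assembly gap of 1000 bp or more.

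Density fell steadily with distance from start sites. It was 23.5 per Mb (22.7 to 24.2) from 5 to 10 kb, 20.8 from 10 to 20 kb, 14.6 from 20 to 50 kb, 8.45 from 50 to 100 kb, 5.01 from 100 to 200 kb and 3.99 (3.41 to 4.64) beyond 200 kb. Without the largest group of like sequences, described below, the value was 1.76 beyond 200 kb and 22.2 from 5 to 10 kb. Median tags fell from 83 in the nearest bin to 47 in the farthest, and median length from 1212.5 to 865.5 bp. Over the same bins, median fold enrichment rose from 6.46 to 7.98 and the share with a CpG island window from 38.9% to 57.1%. These shifts went along with a change in sequence composition, since that group rose from 5.24% to 55.9% of the peaks.

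**Figure D2:**
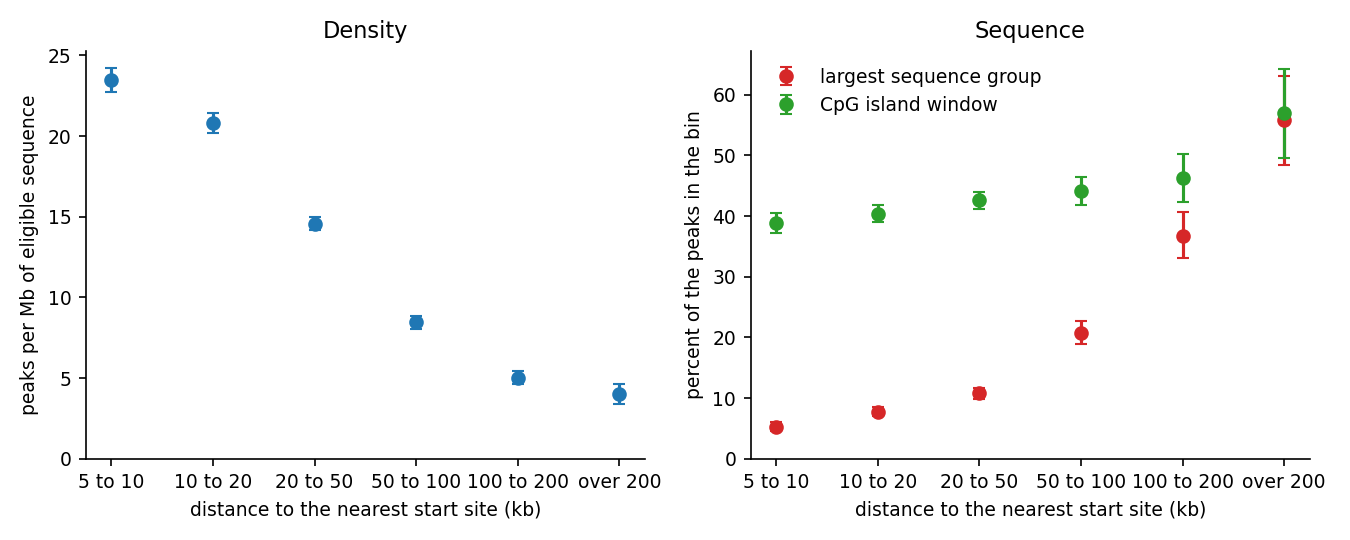
Distal intergenic peaks by distance of the midpoint to the nearest start site of any transcript (6 bins, kb). Left, peaks per Mb of eligible sequence, which fell from 23.5 to 3.99, and right, percent of peaks in the largest sequence group (5.24% to 55.9%) and with a CpG island window (38.9% to 57.1%), with 95% intervals as bars.

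The most distant peaks lay in gene deserts. The farthest, chr1:114557752-114558055, was 593769 bp from any start site, had 20 tags and a fold enrichment of 7.60, and consisted entirely of soft-masked repeat sequence. The next, chr1:114640978-114642469, was 578040 bp away with 79 tags and 6.84, also upstream of Cntnap5a, a neuronal adhesion protein gene. On chromosome 11, chr11:13614677-13615791 was 546845 bp away with 95 tags and 14.83. All of the 5 farthest peaks belonged to the largest or the second largest sequence group.

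CpG content separated the distal intergenic peaks. A CpG island window, here any 200 bp with at least 50% GC and an observed/expected CpG ratio of at least 0.6, was present in 6259 peaks (41.5%, 40.7% to 42.3%). The share was 33.8% in distal introns and 83.7% at start sites. With the stricter criterion of 500 bp, 55% GC and a ratio of 0.65, it was 4.59% (691 peaks) against 2.46% in distal introns and 62.0% at start sites, so that long CpG islands were uncommon among distal intergenic peaks. The median GC at the summit was 52.5% and the median CpG ratio over the peak 0.281, compared with 63.0% and 0.472 at start sites.

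Peaks with a strict CpG island had more tags, higher fold enrichments and higher scores than distal intergenic peaks as a whole. Their medians were 161 tags (147 to 177) and a fold enrichment of 8.11 (7.78 to 8.36), and 17 of the 691 overlapped an ASH2L peak (2.46%). Restricting them to 337 peaks with less than 20% repeats gave a median of 232 tags but a fold enrichment of 6.85. By p-value score, the share with a 200 bp CpG island window rose from 28.9% in the lowest of 4 equal groups of distal intergenic peaks to 35.9%, 42.5% and 58.8% in the following groups. Longer peaks offer more windows, and the median length rose from 741 to 1690 bp over the same groups, so that the part of length in this rise was not tested.

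The highest p-value scores with a CpG island window were at chr5:15670180-15671369 (1254.81, 237 tags) near 4930572O03Rik, chr17:17003736-17006774 (1125.9, 589 tags) near the zinc finger gene Zfp960, and chr8:27319023-27320392 (1122.15, 236 tags) near Tex24. The first and the third of these belonged to the largest sequence group. Next came chr15:8568029-8570387 (1085.24, 445 tags) near Gm2310, and chr13:55189209-55192331 (1058.19, 606 tags), 19012 bp upstream of Nsd1, which encodes a histone H3K36 methyltransferase. Among peaks without a CpG island window and with few repeats, chr2:117017551-117019860, upstream of Spred1, an inhibitor of RAS-ERK signalling, was followed by chr11:121847295-121848791 near Ptchd3, with a score of 929.86, 232 tags and a fold enrichment of 15.04. High H3K4me3 scores were therefore listed both with and without CpG-dense sequence.

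Repeats formed a large share of the peaks with the highest fold enrichment. By score, the median share of repeats was 21.1% in the highest of 4 groups and 20.7% in the lowest. The median share of a distal intergenic peak in soft-masked repeats was 21.1%, compared with 16.7% in distal introns and 13.2% at start sites. When the 200 bp around the summits were compared with each other, 2681 peaks (17.8%) fell into 104 groups of like sequence. The largest group held 1702 peaks (11.3%, 10.8% to 11.8%) on all 19 autosomes, the next 382 and the one after it 78. The largest group made up 12.7% (11.7% to 13.8%) of the highest of the 4 score groups and 10.4% (9.42% to 11.4%) of the lowest. Only distal intergenic summits were used to form this group. Direct matches to its windows were found at the summits of 5.11% of distal intronic peaks and 0.411% of start-site peaks. No repeat families are named in the files used here, and none was assigned. Tags from near-identical copies cannot be placed with certainty, so that the values of single peaks in these groups are uncertain.

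The 30 bases most often shared by summits of the largest group are printed in lower case throughout, because they show how alike the copies are.
Largest sequence group: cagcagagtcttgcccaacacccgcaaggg
This run was present in the summits of 314 of its 1702 peaks (18.4%) and of 19 other distal intergenic peaks. Autosomes hold 5585 exact copies on both strands, of which 3734 were at eligible positions. Of the eligible copies, 891 (23.9%, 22.5% to 25.3%) lay in an H3K4me3 peak. Most copies of even this shared run thus had no listed peak, while distal intergenic peaks covered 1.91% of all eligible bases. The run was picked because it was frequent in these summits, and tags from exact copies cannot be placed with certainty. A copy without a listed peak is therefore not shown to lack the mark.

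Peaks of the largest group differed from the other distal intergenic peaks in most measures. Their median fold enrichment was 9.54 (9.50 to 9.88) against 6.46, while they had 50 tags against 77 and a length of 825 bp against 1191 bp. The summit window had medians of 61.5% GC and 100% soft-masked bases, and 83.8% of the peaks held a CpG island window. They lay 37093 bp from the nearest start site, compared with 17175.5 bp for the others. Among the 233 distal intergenic peaks with a fold enrichment of at least 15, 169 (72.5%) belonged to this group, as did 791 of 2145 (36.9%) with at least 10. By score, its share was lower, with 194 of the 1023 peaks (18.96%) with a score of at least 500. An ASH2L peak overlapped 3 of the 1702 (0.176%, 0.0600% to 0.517%), compared with 0.441% of the other distal intergenic peaks, and the intervals overlapped. Without this group, the median fold enrichment of distal intergenic peaks was 6.46, equal to the median of the whole list, and the share with a CpG island window was 36.1%.

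**Figure D3:**
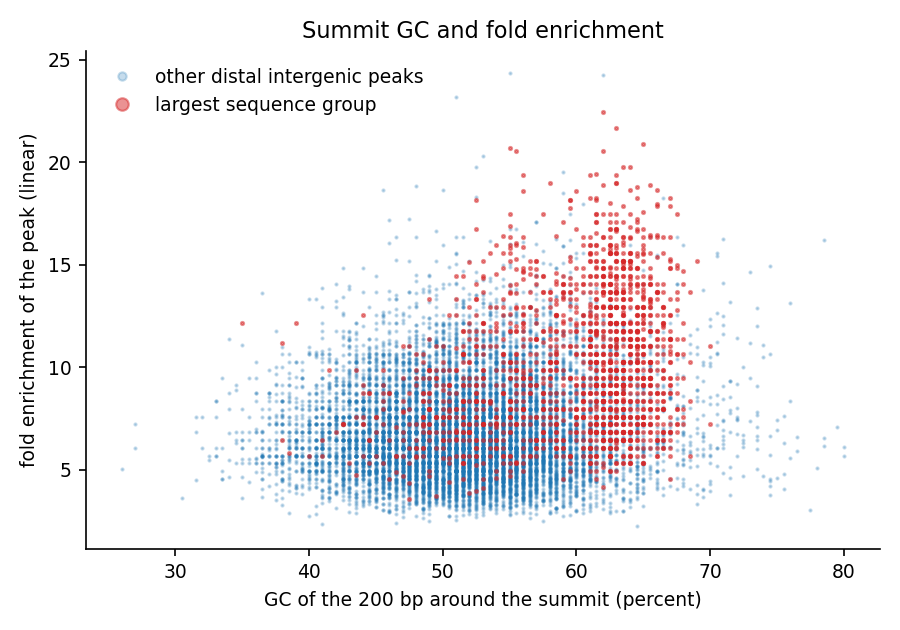
Fold enrichment of each of 15070 distal intergenic peaks against the GC content of the 200 bp around its summit (percent). Peaks of the largest sequence group (red) gather at a median of 61.5% GC and make up 72.5% of the peaks with a fold enrichment of at least 15.

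The 10 highest fold enrichments were found at both repeat copies and other sequence. The highest, 24.33 with 75 tags, was at chr4:78513201-78513728, 92.6% repeats, in a smaller sequence group. The next, 24.24 with 180 tags, was at chr3:5859963-5861036, 109693 bp from Gm8797, and also overlapped an ASH2L peak. With the possible ribosomal RNA sequence at this summit not tested, its fold enrichments for both antibodies are uncertain. At chr10:81997167-81998053, 50513 bp upstream of the zinc finger gene Zfp873, fold enrichment was 23.19 with 103 tags and only 6.09% repeats. The largest group supplied 6 of the remaining 7, among them chr5:95720679-95721122 (22.43), chr2:46729668-46730529 (21.67) and chr14:43361598-43362637 (20.69). All 10 of these peaks were between 444 and 1188 bp long and had from 63 to 198 tags.

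Some of the distal intergenic peaks with the most tags were at tRNA genes, which RNA polymerase III transcribes from promoters inside the gene. The RefSeq annotation, added after seeing the data, places 184 tRNA genes at eligible positions, where GENCODE has no gene body or start site within the limits. A distal intergenic peak covered 74 of them (40.2%, 33.4% to 47.4%). Of all 386 autosomal tRNA genes, 180 (46.6%, 41.7% to 51.6%) were in an H3K4me3 peak of any class. For comparison, tiles of 2000 bp across the eligible sequence overlapped a distal intergenic peak in 4.52% of cases. The 51 peaks that held a tRNA gene had a median of 419 tags (380 to 461) against 73 for the others, a length of 3233 bp against 1128 bp, and 137 tags per kb against 63.3, similar to the 135 tags per kb of start-site peaks. Their fold enrichment was lower, at 5.03 (4.62 to 5.85) against 6.84. A CpG island window was present in 94.1%. Longer peaks have more room for a tRNA gene and for such a window. Many of the 51 peaks also lay close together on chromosome 13.

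Of the 10 distal intergenic peaks with the most tags, 4 held a tRNA gene, as did 4 of the first 20, 10 of the first 50 and 12 of the first 100. The most tags, 1014, were at chr13:23409959-23414236, which held 3 tRNA genes 11769 bp from Abt1, a gene for a basal transcription activator. Nearby, chr13:23399886-23403497 had 917 tags and 2 tRNA genes, and both of these peaks overlapped an ASH2L peak. On chromosome 3, chr3:96499092-96503904 had 893 tags and 4 tRNA genes, 23674 bp upstream of Hfe2, the hemojuvelin gene of iron metabolism. Other examples were chr13:21157625-21162264 near Olfr1368 with 803 tags and chr7:98813880-98817661 near Wnt11 with 639 tags, each with 2 tRNA genes. In the chromosome 13 region near Gpx5, a run of 8 distal intergenic peaks from 21232840 to 21278095 held 3527 tags in total, the most of the 10 largest runs. The second most tags in a single peak, 974 at chr15:81521164-81525747 near Rbx1, came without a tRNA gene.

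**Figure D4:**
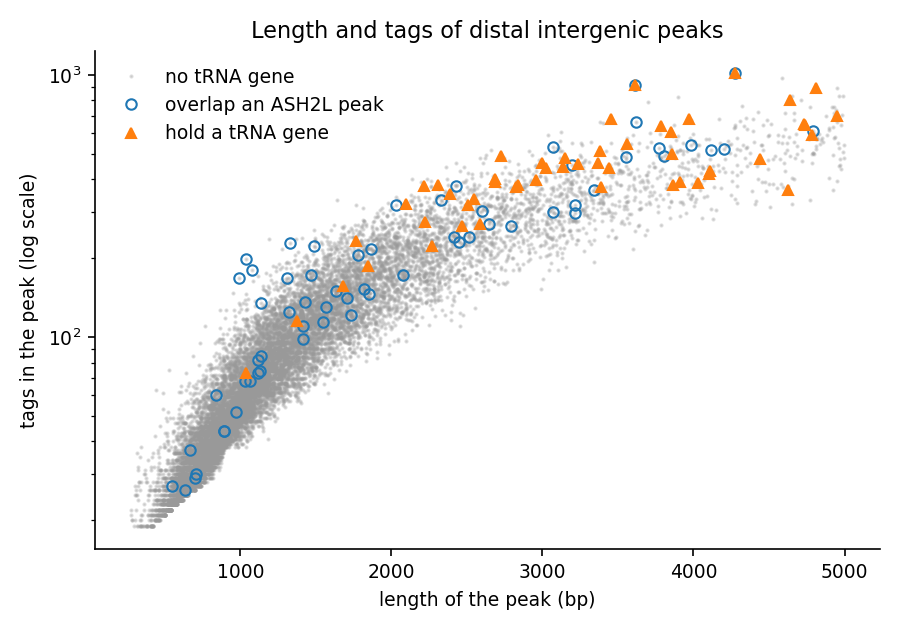
Tags (log scale) against length (bp) for each distal intergenic peak, with the 51 peaks that hold a tRNA gene as triangles and the 62 that overlap an ASH2L peak as circles. Peaks with a tRNA gene lie at the long, tag-rich end, with medians of 3233 bp and 419 tags against 1128 bp and 73 tags.

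Some distal intergenic peaks were near genes of another annotation. With RefSeq, 1724 peaks (11.4%) were within 5000 bp of a start site and 2133 (14.2%) had their midpoint in a gene. Closer by, 681 distal intergenic peaks (4.52%, 4.199% to 4.86%) were within 1000 bp of a start site. They were typed by the first listed gene that starts in this range, which need not be the nearest. This gave 483 at a long noncoding RNA, 66 at a protein-coding gene and 44 at a tRNA gene. For 67, the start site was of a transcript whose gene starts elsewhere. These 681 peaks had a median of 123 tags and a length of 1509 bp. Both annotations placed 12157 of the peaks (80.7%) outside genes and more than 5000 bp from start sites, with a median of 70 tags and a fold enrichment of 6.84.

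Curated enhancers were overlapped more often than sequence at large. RefSeq lists 334 enhancers on autosomes whose midpoint was at an eligible position, and 119 of them (35.6%, 30.7% to 40.9%) overlapped a distal intergenic peak, beside 4.52% of the 2000 bp tiles. Most of these enhancers are VISTA elements, which were tested for activity in mouse embryos, and 101 of the 239 VISTA elements (42.3%) were overlapped, compared with 18 of the 95 others. VISTA elements were longer than the tiles, with a median of 2257 bp, and the other enhancers shorter, with 1073 bp, and longer elements are overlapped more often whatever their sequence. These enhancers were selected by their annotators for known activity, and enhancers were overlapped by only 115 of the 15070 peaks (0.763%), compared with 0.807% of distal intronic peaks.

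By the tissue in which VISTA elements were active, the share overlapped by a distal intergenic peak was 54.2% for hindbrain (32 of 59, 41.7% to 66.3%), 46.0% for midbrain (29 of 63), 43.1% for forebrain (28 of 65), 34.0% for heart (16 of 47), 31.5% for limb (23 of 73) and 15 of 50 for branchial arch. The intervals of all these tissues overlapped, so that no order among them can be read. Of 6 eligible enhancers that were tested in embryonic stem cells, 3 were overlapped by a distal intergenic peak and 5 by an H3K4me3 peak of any class. The 3 at distal intergenic peaks were fragments that activated a Pou5f1 promoter in reporter assays. They overlapped a single peak, chr5:118434177-118439123, with 892 tags, 124069 bp upstream of Med13l, a subunit gene of the Mediator kinase module. A VISTA element active in blood vessels overlapped chr1:133491073-133494392 near Sox13, with 557 tags and a fold enrichment of 7.12. Another, active in forebrain and limb, overlapped chr5:149352233-149354167 near Medag, with 276 tags and 8.05.

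Short motifs were counted in the 200 bp around each summit on both strands, and in all 5214265 eligible tiles of 200 bp. Several GC-rich motifs were more frequent at distal intergenic summits than in tiles. The SP motif GGGCGGGG was present in 3.66% of summits against 0.370% of tiles, the ETS motif CCGGAAG in 3.50% against 0.458%, the NRF1 motif GCGCATGC in 0.617% against 0.161%, and the CTCF core AGGNGGCNG in 9.68% against 2.08%. At start-site peaks, the SP and ETS motifs were present in 18.8% and 9.21%, and in distal introns in 3.71% and 2.68%. Tiles had 40.7% GC on average and summits a median of 52.5%, so that GC content differs in the direction of these motifs, and its part in the differences was not tested.

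Motifs of factors known from embryonic stem cells gave a mixed picture. The KLF motif GGGTGTGG was present in 3.68% of distal intergenic summits against 1.05% of tiles, and the ESRRB motif TCAAGGTCA in 0.896% against 0.371%, compared with 4.52% and 1.07% of distal intronic summits and 3.13% and 0.266% of start-site summits. The octamer ATGCAAAT of POU factors (2.20% against 1.99%) and the SOX motif ACAATGG (3.86% in both) were found at about the same share as in tiles when all distal intergenic summits were counted. Outside the largest sequence group, the shares were 2.39% (2.14% to 2.66%) and 4.32% (3.99% to 4.68%), above those of tiles, which were counted with the copies of this group's sequence left in. Around midpoints instead of summits, the SOX motif was in 3.54% (3.26% to 3.85%) of all distal intergenic peaks. The AT-rich TATA motif TATAAA and GATA motif AGATAAG were less frequent than in tiles, at 6.24% against 20.7% and 1.98% against 3.06%. The largest sequence group had its own profile, with the YY1 motif AANATGGC in 24.6% and the ETS motif in 10.8% of its summits, compared with 3.22% and 2.58% of the other distal intergenic summits. For YY1, tiles had 4.67%, so that all distal intergenic summits (5.63%, 5.28% to 6.01%) were above tiles and those outside the group (2.93% to 3.53%) below. The remaining motifs were the NF-Y motif CCAATCAG (1.36% against 0.763%), the CRE TGACGTCA (0.279% against 0.0964%), the E-box CACGTG (3.34% against 1.69%), the AP-1 motif TGANTCA (6.11% against 6.01%) and the TEAD motif GGAATG (12.43% against 11.03%). Such matches describe letters in a window and are not binding sites.

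Few distal intergenic H3K4me3 peaks overlapped an ASH2L peak. An overlap of at least 1 bp was found for 62 of them (0.411%, 0.321% to 0.527%), compared with 3.03% of all H3K4me3 peaks, 0.446% of distal intronic peaks and 8.15% of start-site peaks. Conversely, of 235 ASH2L peaks at eligible positions, 62 (26.4%) overlapped a distal intergenic H3K4me3 peak, beside 4.52% of the 2000 bp tiles of eligible sequence. The share was highest in the highest of the 4 groups by p-value score, at 1.04% (39 peaks), and was 0.239%, 0.133% and 0.239% in the other groups from the lowest. Beyond 100 kb from start sites, 0 of 790 peaks overlapped, which allows a share of up to 0.380%, the limit that 3 counts give. The ASH2L list was much shorter, with 2464 peaks, so that a peak without overlap is not shown to lack ASH2L.

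The 62 peaks with ASH2L were longer and richer in tags than the rest, with medians of 1720.5 bp against 1129 bp and 176 tags (136 to 242) against 73. Their fold enrichment did not stand apart, at 6.86 (5.94 to 7.76) against 6.84. Longer peaks have more room for an overlap. The ASH2L peaks themselves had 18 to 146 tags with a median of 25.5, compared with 32 in the whole ASH2L list, and fold enrichments from 2.92 to 22.21. These ASH2L calls therefore mostly rested on few tags.

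The 4 highest ASH2L fold enrichments at distal intergenic H3K4me3 peaks lay where the H3K4me3 fold enrichment was also above its median. At chr15:75086294-75087284 near Ly6c2, the ASH2L peak had 146 tags and a fold enrichment of 22.21, and the H3K4me3 peak 168 tags and 20.3. At chr3:5859963-5861036, ASH2L had 133 tags and 21.19, beside 180 H3K4me3 tags and 24.24. Similar fold enrichments for both antibodies were also found at chr15:75085135-75086269, with 8.59 for ASH2L and 11.17 for H3K4me3. At chr12:3110424-3111264, the overlap was only 51 bp, with 19.33 for ASH2L and 9.88 for H3K4me3. Neither library has a control in the peak calling, and the parental HA libraries, which bear on tags collected without HA-ASH2L, were not analysed here. Next was chr12:118835709-118839264, 8843 bp upstream of Sp8, a limb and brain transcription factor gene, with 486 H3K4me3 tags, an H3K4me3 fold enrichment of 5.35 and an ASH2L fold enrichment of 8.20 from 31 tags. Peaks near Lbx1 (8.09 from 28 ASH2L tags), Neurog2 (7.29 from 22) and Chd7 (6.72 from 26), which were picked after their values were seen, were of the same order.

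Distal intergenic peaks were then assigned to the protein-coding gene with the nearest start site, as a description of position and not of regulation. Of 20693 autosomal protein-coding genes, 6138 (29.7%) were nearest to at least 1 peak. Peaks were upstream of that start site in 9489 cases (63.0%) and downstream in 5581, which per eligible sequence was 15.2 and 13.1 per Mb. The most peaks were assigned to Tbl1xr1 (31), a subunit gene of the NCoR corepressor, to the kinase gene Vrk1 (27) and to Rpl38 (25). Per Mb of the sequence nearest to them, these amounted to 16.6, 44.1 and 99.3. The largest sequence group held 9 of the 31 peaks of Tbl1xr1 and 0 of those of Vrk1 and Rpl38. Sox2 followed with 23 peaks, then Ajap1, Med13l, Sall1 and Tfap2c with 22 each, and the highest density of the 10 genes with the most peaks was at Tfap2c, with 103 per Mb.

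Pluripotency genes had more distal intergenic peaks in their surroundings than coding genes in general. Of 49 genes on a list of pluripotency regulators and markers, 35 were nearest to at least 1 peak (71.4%, 57.6% to 82.2%), with 218 peaks in all, beside 29.7% of all coding genes. These genes have long intergenic surroundings, with a median of 42.0 kb of eligible sequence against 7.20 kb. Per Mb, they had 28.8 peaks (25.1 to 32.9) against 14.4. Distance from start sites was not matched in this comparison. For 50 lineage regulators, 42 had at least 1 peak (interval 71.5% to 91.7%), with 185 peaks and 21.7 per Mb (18.7 to 25.03). Their surroundings are longer still, with a median of 70.4 kb of eligible sequence. Of 15 genes for H3K4 methylation and demethylation, which had only 0.0710 Mb of eligible sequence between them, just Wdr5 was nearest to any, with 5 peaks.

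Around Sox2, a core pluripotency transcription factor gene, 23 peaks lay from 41743 to 528709 bp from the start site. The highest p-value score, 805.44 with 239 tags and a fold enrichment of 10.25, was at chr3:34795187-34796596, 145486 bp downstream. In the annotated Sox2 control region, chr3:34755799-34762403, only distal intergenic peaks were looked for, and it contained none. The nearest distal intergenic peaks on each side were 9787 bp before it (182 tags, fold enrichment 7.26) and 1564 bp after it (244 tags, 2.50). Among its partners, Pou5f1 had 1 peak at 15383 bp and Nanog had 2, at 20373 and 37318 bp, with highest scores of only 142.99 and 84.42. None of these 3 genes had a listed H3K4me3 peak within 1 kb of a start site. The nearest was 4213 bp away at Pou5f1, 10597 bp at Nanog and 25135 bp at Sox2. These genes are known to be transcribed in embryonic stem cells, and a gene without a listed start-site peak is not shown to lack the mark.

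Other pluripotency genes had peaks with higher scores than those of Pou5f1 and Nanog. Near Klf4, which had 7 peaks, chr4:55650349-55652876 lay 119146 bp upstream with 322 tags and a fold enrichment of 6.10. Klf5 had 12 peaks, the one with the highest score at chr14:99509459-99511381 with 214 tags and 10.87. Jarid2, a gene of the Polycomb repressive complex, had 20, the one with the highest score at chr13:44633907-44637180 with 466 tags and 5.66. Mycn had 15 and Tbx3 had 16 peaks, with fold enrichments of 9.85 and 9.98 at their highest-scoring peaks. Shorter distances were found for Zfp42 (Rex1), with chr8:43320404-43322652 at 14548 bp (221 tags, 9.57), and for Prdm14, a germ cell and pluripotency regulator, with chr1:13102335-13106208 at 22892 bp (647 tags, 5.42). At Esrrb, an orphan nuclear receptor gene, the highest-scoring of 4 peaks was chr12:86319971-86321835, 40214 bp upstream, with 204 tags and 7.66. Spry2, Sall1 and Sall4 had 10, 22 and 7 peaks. No peak was assigned to 14 genes of the list, among them Dppa5a, Tdgf1, Stat3, Nodal, Lefty1 and Lefty2, and 3 of the 14 (Utf1, Tcea3 and Trim28) had no eligible sequence.

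Lineage regulators, which act in later development, included several with a CpG-dense distal intergenic peak. At Sox17, an endoderm factor, the peak chr1:4570927-4572500 had 242 tags, a fold enrichment of 12.54 and a CpG ratio of 0.643. Nearer to their genes, chr17:26849051-26851593 lay 5313 bp upstream of the cardiac gene Nkx2-5 (334 tags, ratio 0.703), chr13:56257913-56261144 lay 7365 bp upstream of the neurogenic gene Neurog1 (429 tags, 0.614) and chr1:78215531-78218681 lay 19972 bp upstream of Pax3, a neural crest and muscle factor (392 tags, 0.750). The highest-scoring peaks of Evx1 and Eya1, with fold enrichments of 9.51 and 11.57, had CpG ratios of 0.596 and 0.594. Lower ratios were found at the highest-scoring peaks of Irx5 (0.257) and Sox1 (0.259). Against the median of 0.281 over all distal intergenic peaks, lineage genes thus had peaks on both sides, and the choice of the highest-scoring peak per gene itself favours CpG-dense peaks.

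Peaks were denser near genes that carried a listed H3K4me3 peak at a start site. Sequence nearest to these 14370 genes had 15.6 distal intergenic peaks per Mb (15.3 to 15.8), and sequence nearest to the other 6323 had 10.9 (10.5 to 11.3). The difference was greatest at short range. From 5 to 20 kb from the coding start site, it was 39.9 against 15.7 per Mb, from 20 to 50 kb 30.3 against 15.9, from 50 to 100 kb 20.003 against 13.8, and beyond 100 kb 6.71 (6.48 to 6.94) against 6.27 (5.85 to 6.72), where the intervals overlapped. Among peaks near genes without a start-site peak, 18.4% belonged to the largest sequence group, against 9.62% near the others. Without that group, densities were 14.1 and 8.89 per Mb. Median tags hardly differed, at 73 and 71.

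**Figure D5:**
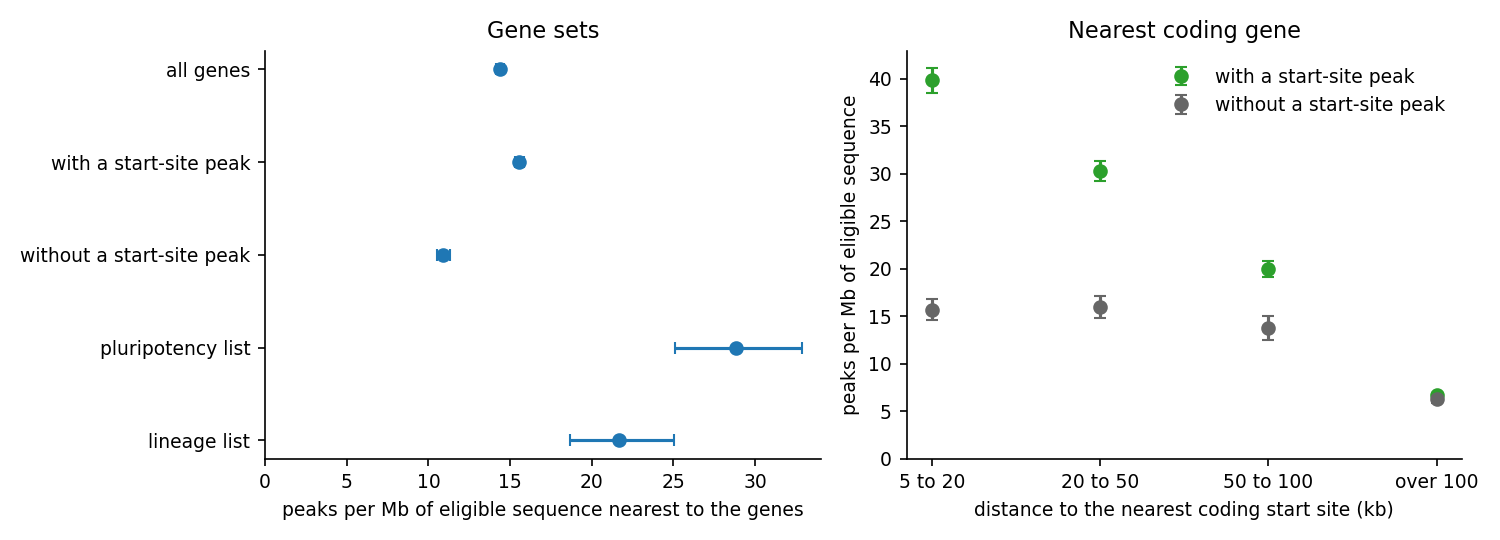
Distal intergenic peaks per Mb of eligible sequence nearest to each set of protein-coding genes (left), and by distance to the coding start site for genes with and without a listed start-site H3K4me3 peak (right), with 95% Poisson intervals. Pluripotency (28.8) and lineage genes (21.7) lie above all genes (14.4), and the 2 gene classes on the right converge beyond 100 kb.

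Many distal intergenic peaks had close neighbours. With gaps of at most 10000 bp between them, 6350 peaks (42.1%) formed 2592 runs of 2 or more, and 93 runs held 5 or more. The median distance from a peak's midpoint to that of its nearest neighbour on either side was 13908 bp. Runs of 10 peaks were found at chr8:83764744-83820331 near Adgre5 and at chr2:73036995-73086537 near Gm11084, with 1587 and 1169 tags in total. A run of 9 lay near Rassf10 at chr7:113016954-113061883 with 1335 tags. None of the peaks in these runs belonged to the largest sequence group.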

How the data were processed

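CUT&RUN libraries of HA-ASH2L E14 cells were analysed as 2 deposited peak lists, for H3K4me3 (59927 peaks) and HA-ASH2L (2464 peaks). According to the study's methods and the submitters' processing notes, the authors mapped reads to mm10 with Bowtie2, used SAMtools 1.5, bedtools and HOMER 4.10, merged duplicates and called peaks with MACS 1.4. Per the file headers, MACS 1.4.3 was run with no control and at most 1 tag per position, leaving 27328071 H3K4me3 and 25677963 ASH2L tags. Methods state a fragment size limit below the tag sizes in the headers (142 and 151 bp), and which fragments were counted is not settled. The deposited tags are whole counts per peak by the authors, not normalized. The deposited fold enrichment is the authors' ratio of summit tags to a local background, and the deposited score is −log10 of the p-value times 10. Sequence that collects tags with any antibody was not removed, and no list of such regions was used.

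Peaks were placed by midpoint on GENCODE vM21, and overlaps needed 1 bp. Eligible sequence counts autosomal bases, without N, at which a midpoint meets the position rule. Its division by distance, side and gene was estimated from every 10th base. Summits were compared with blastn 2.17.0 (at least 100 bp and 80% identity) and grouped by linked matches. Repeats are soft-masked bases. Shares have 95% Wilson intervals, medians order-statistic intervals and densities Poisson intervals. No tests were run, since the lists hold no values per sample. Named peaks followed a rule: the 10 highest by fold enrichment and by score, the 5 by tags, distance, ASH2L fold enrichment, and score with and without a CpG island window, the highest-scoring peak of each listed gene, and those next to the thresholds. The peaks and gene lists were chosen with earlier results of these data known. RefSeq tRNA genes, enhancers and the sequence groups were added after seeing the data, as were the examples from them. The parental HA samples were not used. Not every item that the rule selects is reported here. Procedures were tested on simulated data. Software was numpy 2.4.6, scipy 1.17.1, pandas 2.3.3 and matplotlib 3.10.9 under Python 3.11.15.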

Additional observations from a re-analysis of the deposited data

How the results depend on the processing

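Without a test there is no significance call to lose, and medians, shares and densities are compared by their counting intervals. Counts of peaks, genes and motifs are compared by a wide fixed limit instead. By that limit, 10351 peaks with a score of 100 or more passed as unchanged from 15070. Of the alternative values for the summary measures, 45 stayed within the interval or limit of the main one and 25 did not. With a score of 100 or more, medians were 7.60 for fold enrichment and 99 tags, 46.9% of peaks held a CpG island window and density was 9.88 per Mb. With fold enrichment at or above the list median, 8624 peaks were left, with a median of 8.36, a CpG island share of 46.4%, 22.7% repeats and 8.23 per Mb. Beyond 10000 bp from start sites, the median was 70 tags, the CpG island share 42.4% and density 12.8 per Mb. With RefSeq, repeats were 21.9% and density 13.8 per Mb. Density was 13.7 per Mb for peaks wholly outside genes and 12.8 per Mb with chromosomes X and Y. The 500 bp criterion gave a CpG island share of 4.59%, and ASH2L peaks at or above their median fold enrichment overlapped 0.239%. Leaving out the largest sequence group, a setting chosen after seeing the data, gave a median fold enrichment of 6.46, 77 tags, a CpG island share of 36.1%, repeats of 18.6% and 12.8 per Mb, with 22.2 per Mb from 5 to 10 kb and 1.76 per Mb beyond 200 kb. For motifs, the midpoint in place of the summit moved 9 of 16 shares beyond their interval. No paired analysis was possible because the duplicates were merged before peak calling, and for the same reason no replicate could be left out. A median of 73 tags in 1 merged library limits how finely single peaks can be ranked.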
